A study of Mus musculus with 14 samples.

Results

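Myofibroblast contractile and TGF-beta genes were read on corneal arrays of WT and Klf5CN mice. Members are every probe set that carries 1 of 10 gene symbols and no other: Acta2, Tagln, Cnn1, Myl9, Tpm1, Tpm2, Tgfb1, Tgfb2, Tgfb3 and Tgfbi. They are 10 of 18194 genes read by a probe set with 1 symbol, and make up 25 of the 45101 probe sets on the array. Of these, 22 exceeded a signal of 20 on at least 3 arrays and were tested among 29416 probe sets in all. The other 3, a pair for Acta2 and 1 for Tpm1, lay between log2 3.32 and 4.67 on every array, where 3.32 is the lowest value kept.

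There were 4 groups. PN11 WT and PN11 Klf5CN hold 3 mice each at postnatal day 11, and PN56 WT and PN56 Klf5CN hold 4 mice each at postnatal day 56. Klf5CN mice carry loxP sites in both Klf5 alleles (Klf5 loxP/loxP) and 1 copy of the Le-Cre transgene, which is active in tissues from the surface ectoderm such as the corneal epithelium and lens. The mice called WT are Klf5 loxP/loxP littermates on the same mixed background that lack Le-Cre, so loss of Klf5 and the presence of Le-Cre cannot be told apart. Each array holds RNA of both corneas of 1 mouse, cut out around the limbus, with epithelium, stroma and endothelium together. In such RNA, fewer cells of a type and less RNA per cell cannot be told apart.

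A myofibroblast is a contractile repair cell that stromal keratocytes can give rise to after corneal injury, and smooth muscle alpha-actin, the product of Acta2, is its usual marker. TGF-beta ligands are secreted in a latent form, held in the matrix by binding proteins, released by integrins and proteases, and sensed by paired receptor kinases that phosphorylate Smad proteins. Contractile genes are also driven by serum response factor (SRF), which binds the CArG box. The same contractile proteins are abundant in vessel smooth muscle, pericytes and the iris, so none of them is particular to one cell type.

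Promoter sequence is shown for Acta2, Myl9 and Tgfb2, since Acta2 and Tgfb2 were called higher in Klf5CN corneas and Myl9 was not. Each is the 250 bases before the RefSeq start (build GRCm38.p6), printed 5′ to 3′ on the gene's strand: Acta2 on the minus strand at chr19:34255374-34255623, Myl9 on the plus strand at chr2:156775214-156775463, and Tgfb2 on the minus strand at chr1:186705990-186706239. Capitals mark CArG-like matches in Acta2 and Myl9, and a CACCC-type match, of the kind bound by Kruppel-like factors such as Klf5, in Tgfb2. Matches of the latter type in Acta2 (1) and Myl9 (6) are not in capitals.
Acta2: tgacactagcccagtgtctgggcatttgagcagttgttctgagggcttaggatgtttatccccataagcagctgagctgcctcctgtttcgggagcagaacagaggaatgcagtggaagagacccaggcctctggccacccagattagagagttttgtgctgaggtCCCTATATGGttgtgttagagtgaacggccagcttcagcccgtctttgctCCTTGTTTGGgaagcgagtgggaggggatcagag
Myl9: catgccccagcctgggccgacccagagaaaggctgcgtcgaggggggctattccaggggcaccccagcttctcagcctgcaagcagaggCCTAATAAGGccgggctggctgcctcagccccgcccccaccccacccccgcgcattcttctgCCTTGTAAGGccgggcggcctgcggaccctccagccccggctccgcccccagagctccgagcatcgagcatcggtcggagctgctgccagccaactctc
Tgfb2: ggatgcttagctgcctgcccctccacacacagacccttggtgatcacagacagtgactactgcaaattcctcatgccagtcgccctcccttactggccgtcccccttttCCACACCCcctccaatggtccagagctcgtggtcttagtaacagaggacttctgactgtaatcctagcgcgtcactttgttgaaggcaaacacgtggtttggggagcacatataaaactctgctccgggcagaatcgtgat
The strict CArG box (CC, then 6 bases of A or T, then GG) was found in Myl9 at -161, counted from the start, and not in Acta2 or Tgfb2. With up to 1 of the central bases changed, Acta2 had 2 matches, CCCTATATGG at -84 and CCTTGTTTGG at -34, and Myl9 had 2, the strict one and CCTTGTAAGG at -99. The other 5 members with a promoter in the table (Cnn1, Tpm1, Tpm2, Tgfb1 and Tgfbi) had neither form. Of 32851 promoters of this length, 1.47% held the strict box and 8.59% the relaxed one. The letters CCNCNCCC, on either strand, were present in 45.9% of all promoters, in Tgfb2 at -141 (CCACACCC), and in 7 of the 8 members searched, all but Tpm1. The Smad-type letters CAGAC were present in 42.2% of promoters and in Acta2, Tgfb2 and Tgfbi. The table has no entry for Tagln or Tgfb3. A match is a description of letters and not of a bound site.

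The deletion was read first. On the Klf5 probe set with the largest loss (1430255_at), log2 signal was 8.91 to 9.21 in PN11 WT and 3.67 to 4.19 in PN11 Klf5CN, and 9.91 to 10.56 against 3.32 to 6.14 at PN56. The 2 groups did not overlap at either age. Another Klf5 probe set, 1451739_at, was lower by -0.83 at PN11 and -0.34 at PN56, both short of 2-fold, and the sources used here do not say whether it lies in the deleted part. A pair of arrays, called the high-ratio arrays below, stood apart in control signals. The study reports that RNA quality and integrity passed a Bioanalyzer check, and the source of these ratios was not tested. The ratio of 3′ to 5′ control signal for beta-actin was 3.07 in PN11 Klf5CN replicate 3 and 2.63 in PN56 Klf5CN replicate 4, against 1.17 to 1.39 on the other 12 arrays, and for Gapdh it was 72.5 and 1.57 against at most 0.845. Of the 22 tested member probe sets, PN11 Klf5CN replicate 3 was the lowest of its group on 11 and the highest on 7, and PN56 Klf5CN replicate 4 was the lowest on 6 and the highest on 11. Results are given with and without both arrays where that matters, a choice made after seeing the data.

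A probe set is called below when its Benjamini-Hochberg adjusted p in the limma fit was under 0.05 and the group means differed by more than 2-fold, a log2 difference of 1. At PN11, 4 of the 22 tested member probe sets were called higher in Klf5CN corneas, against 2.77% of all tested probe sets. They belong to Acta2, Tagln and Tgfb2. By limma 0 were called lower, against 1.16%. At an unadjusted p under 0.05, 9 were higher and 1 lower, and a rank rule adapted from the study's methods (groups that do not overlap, more than 2-fold apart and at least 3 Present calls in the higher group) took 5 as higher and 0 as lower, against 3.52% and 1.76% of all probe sets. The shares of all probe sets or genes at an unadjusted p under 0.05 were not computed. Counts at that cutoff, here and below, therefore have no background beside them. Without both high-ratio arrays 8 were called higher, against 3.22%, among them Cnn1, which passed the filter mainly through PN11 Klf5CN arrays. At PN56, 1 was called higher, for Acta2, against 5.67% of all probe sets, and 0 lower by limma against 1.44%. There, 8 had an unadjusted p under 0.05 and were higher, 0 were lower, and the rank rule took 1 as higher and 0 as lower, against 3.89% and 1.2%.

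From PN11 to PN56 in WT corneas 7 of 22 were called lower, against 12.3% of all probe sets, and 0 higher by limma, against 10.2%. At an unadjusted p under 0.05, 5 were higher and 10 lower. The rank rule took 0 as higher and 7 as lower, against 9.29% and 10.9% of all probe sets. In Klf5CN corneas 9 were lower at PN56 than at PN11, against 10.6%, and 1 was higher, against 10.4%. Cnn1 is in the limma counts of 7 and 9, and it passed the filter only through PN11 arrays. For the difference between the ages of the Klf5CN effect, limma called 0 higher and 0 lower, against 0.211% and 0.187%, with 1 higher and 0 lower at an unadjusted p under 0.05. The contrasts share arrays, so these counts are not independent. Arrays of the groups did not overlap on 8 member probe sets that were higher and 3 that were lower in Klf5CN at PN11 (15.3% and 13.8% of all), and on 6 higher and 0 lower at PN56 (9.45% and 8.81%). With age they did not overlap on 4 higher and 12 lower in WT (26.5% and 27.2% of all) and on 6 higher and 9 lower in Klf5CN corneas (19.6% and 19.2%).

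**Figure D1:**
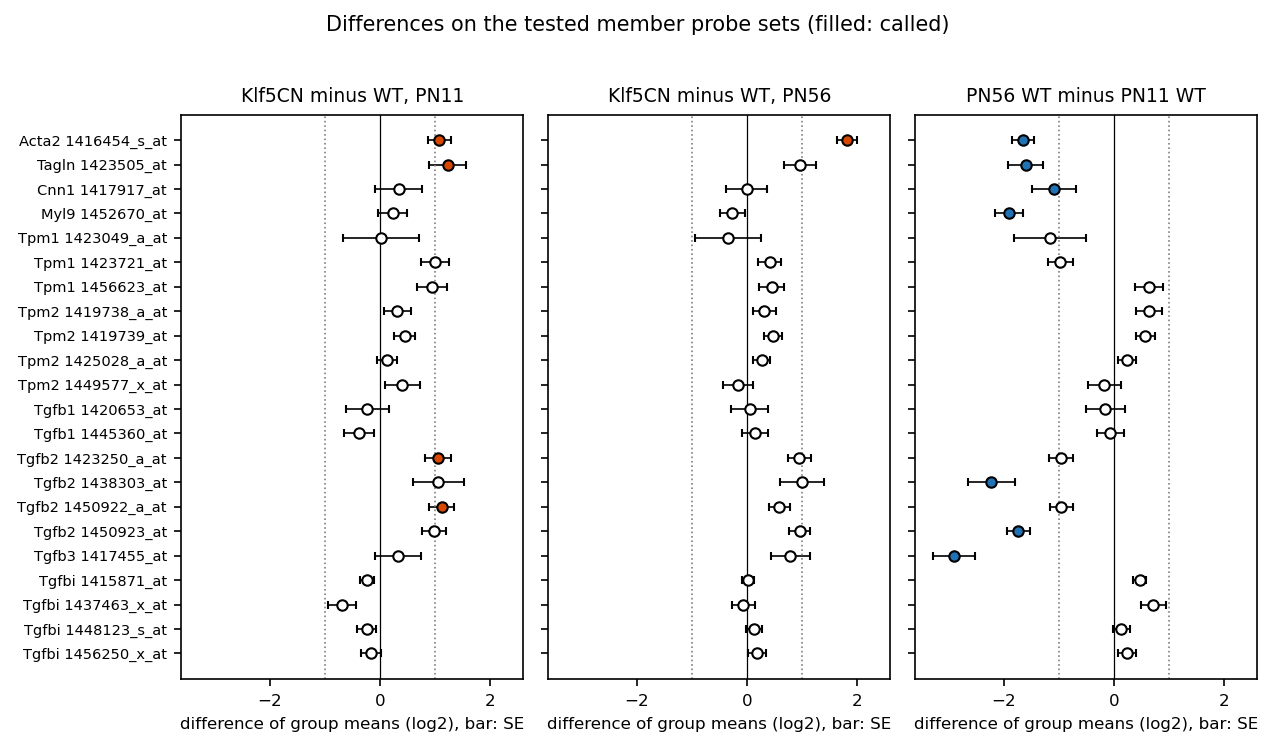
Log2 difference of group means (x axis) for each of the 22 tested member probe sets (rows), with bars for 1 SE, in 3 comparisons: Klf5CN minus WT at PN11, Klf5CN minus WT at PN56, and PN56 WT minus PN11 WT. Filled points are called, orange for higher and blue for lower, and dotted lines mark 2-fold: 4 points are called higher at PN11, 1 at PN56, and 7 are called lower from PN11 to PN56 in WT.

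Acta2 encodes smooth muscle alpha-actin, the filament that gives the myofibroblast its contractile stress fibres. On its tested probe set (1416454_s_at) the PN11 WT arrays read 9.95, 10.50 and 10.32 on the log2 scale and the PN11 Klf5CN arrays 11.58, 11.13 and 11.30. At PN56 the WT arrays read 8.42, 8.66, 8.65 and 8.71 and the Klf5CN arrays 10.54, 10.56, 9.84 and 10.79. Every Klf5CN array lay above every WT array of its age, and the PN56 Klf5CN arrays overlapped the PN11 WT arrays. Acta2 was 2.11-fold higher in Klf5CN at PN11 (log2 1.08, SE 0.21, adjusted p = 0.0078) and 3.53-fold higher at PN56 (1.82, SE 0.18, adjusted p = 5e-05). The PN11 call was lost without PN11 WT replicate 1 (0.92, adjusted p = 0.053) and without PN11 Klf5CN replicate 1 (0.95, adjusted p = 0.041, under 2-fold), and the PN56 call held with each of the 14 arrays left out, between 1.70 and 2.02. Without both high-ratio arrays the differences were 1.09 and 1.70.

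With age, Acta2 fell 3.14-fold in WT corneas (log2 difference -1.65, SE 0.20, adjusted p = 1.4e-05). In Klf5CN corneas it was 1.87-fold lower at PN56 than at PN11 (-0.91, SE 0.20, adjusted p = 0.0023), short of 2-fold. The estimated Klf5CN effect at PN56 exceeded that at PN11 by 0.74 (SE 0.28), with an adjusted p of 0.34 in the test of that difference. The adjusted p ran from 0.044, without PN56 Klf5CN replicate 3, to 0.59 as each array was left out. That array is the lowest of its group for Acta2, at 9.84. The suffix of the probe set's name marks probes that can also match related transcripts, so other actins may add to its signal. The remaining Acta2 probe sets, 1444105_at and 1456658_at, were near the lowest value kept, with Present calls on 3 and 0 of the 14 arrays, and measure little.

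Tagln encodes transgelin (SM22), an actin-binding protein of smooth muscle that is also a TGF-beta responsive gene. Its log2 signals on 1423505_at were 7.75, 8.07 and 8.01 in PN11 WT and 9.87, 9.44 and 8.24 in PN11 Klf5CN. At PN56 they were 6.21, 6.71, 6.10 and 6.39 in WT and 7.92, 7.24, 7.16 and 6.94 in Klf5CN. All Klf5CN arrays were above the WT arrays of the same age. The lowest in each Klf5CN group was the high-ratio array, at 8.24 and 6.94. The difference at PN11 was 2.35-fold (1.23, SE 0.34, adjusted p = 0.042). That call is near its threshold and was lost without any of 10 of the 14 arrays (log2 0.89 to 1.30, adjusted p 0.050 to 0.17). Without both high-ratio arrays the PN11 difference was 1.71 (adjusted p = 0.0017). At PN56 the difference was 1.95-fold (0.96, SE 0.29, adjusted p = 0.037), just short of 2-fold, and 1.09 (adjusted p = 0.0033) without both arrays. Tagln fell 3.02-fold with age in WT (-1.60, adjusted p = 0.00091) and 3.65-fold in Klf5CN corneas (-1.87, adjusted p = 0.00031).

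Cnn1 encodes calponin, which binds actin and restrains myosin in smooth muscle. Its probe set was near the lowest value kept throughout: 4.19, 4.32 and 4.71 in PN11 WT, 5.55, 5.37 and 3.32 in PN11 Klf5CN, and 3.32 on all 8 PN56 arrays. It was called Present on 1 array, in PN11 Klf5CN. The PN11 Klf5CN mean of 4.75 was at least 2.69-fold above the PN56 Klf5CN mean, which is the lowest value kept. Signals exceeded 20 only on PN11 arrays (26.1 in WT, 46.8 and 41.4 in Klf5CN), and were 1.7 to 6.8 at PN56. Cnn1 thus passed the filter only through the age at which it is high, so its falls with age are not evidence of a fall. Between genotypes Cnn1 differed at PN11 by 0.34 (SE 0.42, adjusted p = 0.72), and by 1.06 (adjusted p = 0.02) without PN11 Klf5CN replicate 3, the array at 3.32. Cnn1 passed the filter mainly through the Klf5CN arrays at 46.8 and 41.4, so the latter call is not evidence of a difference. Cnn1 was also counted among the falls with age in WT, though no array of either WT group was called Present. Leaving out any of 6 WT arrays (PN11 replicates 1 and 2 and each PN56 replicate) ended the call of that fall (adjusted p 0.06 to 0.078). At PN56 no level can be compared between genotypes.

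Myl9, the regulatory light chain of smooth muscle and non-muscle myosin, was not called between genotypes at either age. Its signals at PN11 were 9.44, 9.63 and 9.96 in WT and 10.33, 10.29 and 9.12 in Klf5CN, and at PN56 7.95, 7.73, 7.80 and 7.64 in WT and 7.84, 7.41, 7.66 and 7.18 in Klf5CN. WT and Klf5CN arrays overlapped at both ages, and again the high-ratio arrays were the lowest of their groups. Myl9 differed by 0.23 (SE 0.27, adjusted p = 0.69) at the younger age and by -0.26 (SE 0.23, adjusted p = 0.50) at the older, and by 0.63 (adjusted p = 0.03, under 2-fold) and -0.14 without both arrays. With age Myl9 fell 3.73-fold in WT (adjusted p = 3.2e-05) and 5.24-fold in Klf5CN corneas (adjusted p = 5.8e-06), and no PN56 array reached the lowest PN11 array.

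**Figure D2:**
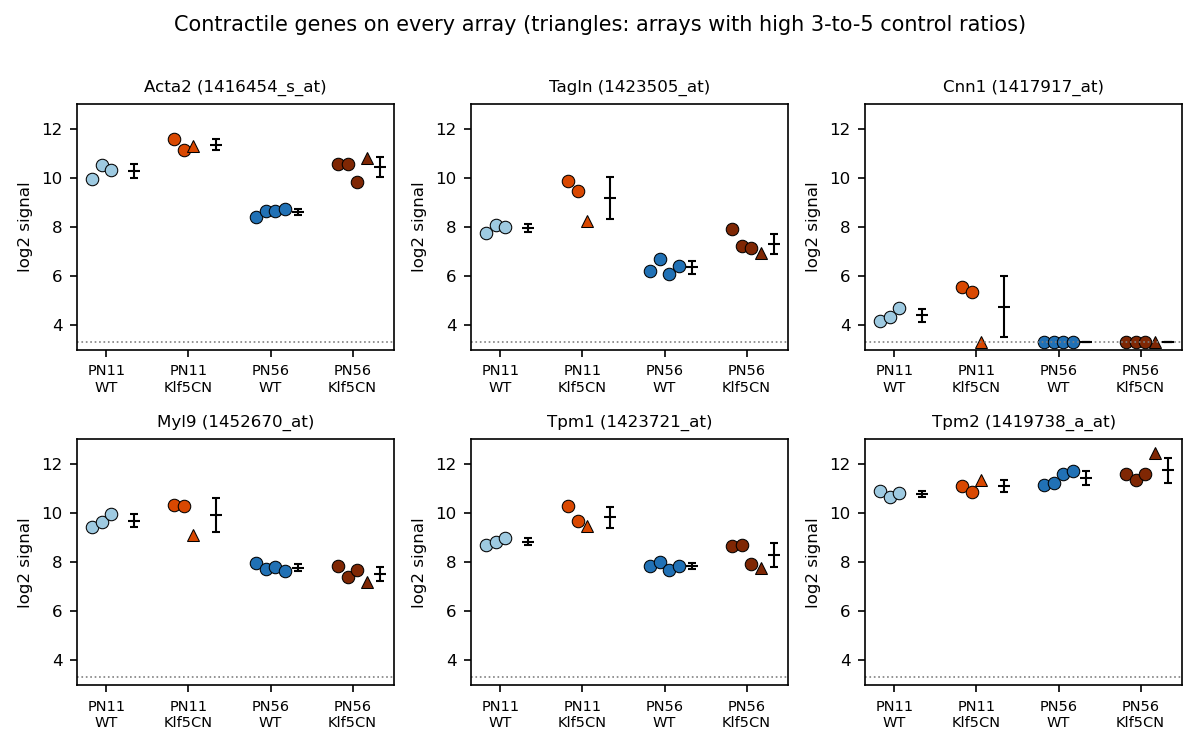
Log2 signal (y axis) of 6 contractile genes on each array, by group (x axis); horizontal ticks with bars beside the points give the group mean and SD, triangles are the arrays with high 3′ to 5′ ratios, and the dotted line is the lowest value kept, 3.32. Every Klf5CN array lies above the WT arrays of its age for Acta2 and Tagln, Myl9 falls between the ages in both genotypes, Cnn1 lies at the lowest value at PN56, and Tpm2 has no call.

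Tropomyosins lie along actin filaments and set their access to myosin. Tpm1 was read by 3 tested probe sets. On the brightest, 1423721_at, the arrays read 8.69, 8.80 and 8.99 in PN11 WT, 10.30, 9.68 and 9.49 in PN11 Klf5CN, 7.85, 8.0, 7.70 and 7.86 in PN56 WT, and 8.67, 8.71, 7.94 and 7.78 in PN56 Klf5CN. Groups did not overlap at PN11 and overlapped at PN56, where the high-ratio array was lowest. The PN11 difference was 1.0 (SE 0.25, adjusted p = 0.026), at the edge of 2-fold, and that of PN56 0.42 (SE 0.21, adjusted p = 0.20), or 1.17 (adjusted p = 0.0082) and 0.59 (adjusted p = 0.047) without both arrays. A dimmer probe set, 1456623_at, differed by 0.94 at PN11 (adjusted p = 0.051), where the groups overlapped. At PN56 it differed by 0.45 (adjusted p = 0.21), and the groups did not overlap. The third, 1423049_a_at, read 9.67 and 9.30 on the other PN11 Klf5CN arrays and 6.49 on the high-ratio one, against 8.40 to 8.55 in WT. Its PN11 difference was thus 0.02 (SE 0.69) with all arrays and 1.02 (adjusted p = 0.047) without both high-ratio arrays.

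The age difference of Tpm1 in WT corneas was not the same on its probe sets. It was -0.97 on 1423721_at (adjusted p = 0.0034), -1.16 on 1423049_a_at (adjusted p = 0.17) and 0.64 on 1456623_at (adjusted p = 0.051). Tpm1 makes many transcripts by alternative splicing, and the sources used here do not say which of them each probe set reads. Tpm2 read between 10.65 and 12.46 on 1419738_a_at, and its 4 probe sets had Klf5CN differences of 0.13 to 0.45 at PN11 and -0.16 to 0.48 at PN56, with 0 calls by limma in any comparison, and none at PN11 or PN56 with any array left out. In WT Tpm2 was higher at PN56 than at PN11 by 0.64 (adjusted p = 0.035) and 0.57 (adjusted p = 0.016) on 2 of the 4, under 2-fold. It differed by 0.24 (adjusted p = 0.26) and -0.17 (adjusted p = 0.68) on the rest.

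Of the 3 TGF-beta ligands, Tgfb2, the isoform prominent in the eye, was the one called between genotypes. On its brightest probe set, 1450923_at, the arrays read 8.12, 8.36 and 8.20 in PN11 WT and 9.24, 9.09 and 9.29 in PN11 Klf5CN. At PN56 they read 6.88, 6.5, 6.24 and 6.38 in WT and 7.29, 7.81, 6.94 and 7.79 in Klf5CN. Each Klf5CN group lay above the WT group of its age with no overlap. The 4 probe sets of the gene differed by 1.12, 1.06, 1.06 and 0.98 at PN11, and 2 of them, 1450922_a_at (adjusted p = 0.0082) and 1423250_a_at (adjusted p = 0.016), passed both thresholds. The probe set at 0.98 had an adjusted p of 0.016, and the dim one, 1438303_at, an adjusted p of 0.21. The call on 1450922_a_at held with each array left out, and that on 1423250_a_at was lost without any of 4 PN11 arrays (0.91 to 1.0, adjusted p 0.063 to 0.092): WT replicates 1 and 3 and Klf5CN replicates 1 and 2.

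At PN56 the Tgfb2 differences were 0.96 (adjusted p = 0.0035), 0.95 (adjusted p = 0.0063), 0.59 (adjusted p = 0.052) and 1.0 (adjusted p = 0.11), and none was called. Those on 1450923_at and 1423250_a_at were 1.95-fold and 1.93-fold, so that the fold limit alone set the call. With age Tgfb2 was lower in both genotypes. In WT it fell by 2.22 and 1.73 on 1438303_at and 1450923_at (adjusted p = 0.00085 and 1.2e-05), and the others were lower by under 2-fold (-0.96 and -0.95). In Klf5CN corneas all 4 probe sets fell, with differences of -2.28 to -1.08. The difference between ages of the Klf5CN effect was between -0.53 and -0.02 on the 4, with adjusted p of 0.58 to 0.99.

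Tgfb1, the isoform most linked to scarring, read 7.89, 7.77 and 7.91 in PN11 WT and 8.26, 8.40 and 6.23 in PN11 Klf5CN on 1420653_at. The array at 6.23 is the high-ratio one, and the others of its group lay above WT. The difference was -0.23 with all arrays (SE 0.39, adjusted p = 0.81) and 0.47 (adjusted p = 0.017, under 2-fold) without both arrays. At PN56, WT arrays read 7.68 to 7.75 and Klf5CN arrays 7.64 to 7.99, a difference of 0.05 (SE 0.33, adjusted p = 0.95). The age difference in WT was -0.15 (adjusted p = 0.78). The dimmer Tgfb1 probe set, at 3.55 to 4.49, was also not called.

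Tgfb3 had the largest fall with age among the members in WT corneas. It read 8.66, 8.91 and 8.71 in PN11 WT and 5.85, 6.26, 5.94 and 5.40 in PN56 WT, a 7.46-fold fall (-2.90, SE 0.38, adjusted p = 2.9e-05). The PN11 Klf5CN arrays read 9.31, 9.52 and 8.44 and the PN56 Klf5CN arrays 7.35, 6.51, 5.47 and 7.27. The genotypes overlapped at both ages, through PN11 Klf5CN replicate 3 and PN56 Klf5CN replicate 3. Between genotypes Tgfb3 differed by 0.33 at PN11 (adjusted p = 0.72), while the PN56 value was 0.79 (SE 0.35, adjusted p = 0.15). Without PN56 Klf5CN replicate 3, the lowest array, the PN56 difference was 1.18 (adjusted p = 0.0067).

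Tgfbi encodes a TGF-beta induced matrix protein that is abundant in corneal epithelium and stroma and is the protein altered in several corneal dystrophies. It had high signals on every array, and its 4 probe sets lay between 10.61 and 13.30. On the brightest, 1448123_s_at, the ranges were 12.51 to 12.62 in PN11 WT, 12.15 to 12.49 in PN11 Klf5CN, 12.55 to 12.85 in PN56 WT and 12.55 to 13.27 in PN56 Klf5CN. Klf5CN arrays were below WT at PN11 without overlap, by -0.24 (SE 0.17, adjusted p = 0.46), and overlapped WT at PN56. The 4 probe sets differed by -0.69 to -0.16 at PN11 and by -0.06 to 0.19 at PN56, and none was called. From PN11 to PN56 they were higher by 0.14 to 0.72 in WT. In Klf5CN 1437463_x_at rose 2.56-fold (1.36, adjusted p = 0.00032), while the others rose by 0.51 to 0.73, under 2-fold and not called.

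**Figure D3:**
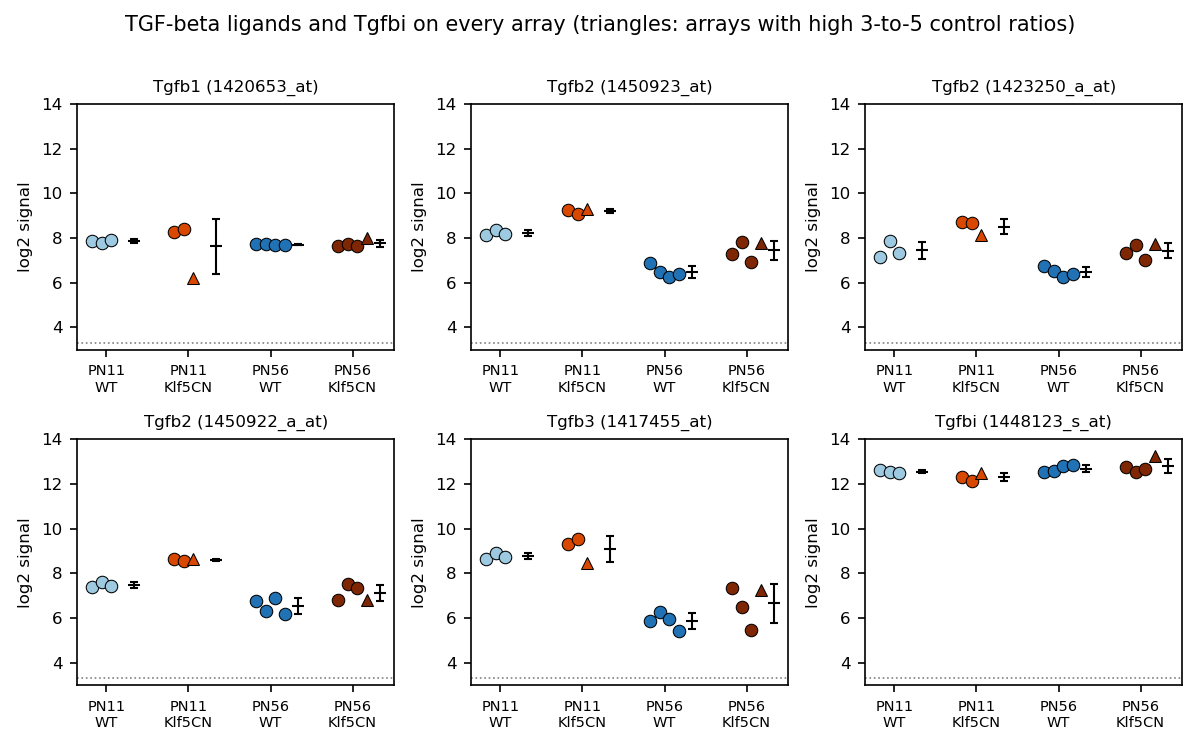
Log2 signal (y axis) of Tgfb1, Tgfb3, Tgfbi and 3 probe sets of Tgfb2 on each array, by group (x axis), with the group mean and SD beside the points, triangles for the arrays with high 3′ to 5′ ratios and a dotted line at the lowest value kept. Every Klf5CN array lies above the WT arrays at PN11 for Tgfb2, Tgfb3 is lower at PN56 in both genotypes, and Tgfbi lies near the top of the scale in all 4 groups.

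**Figure D4:**
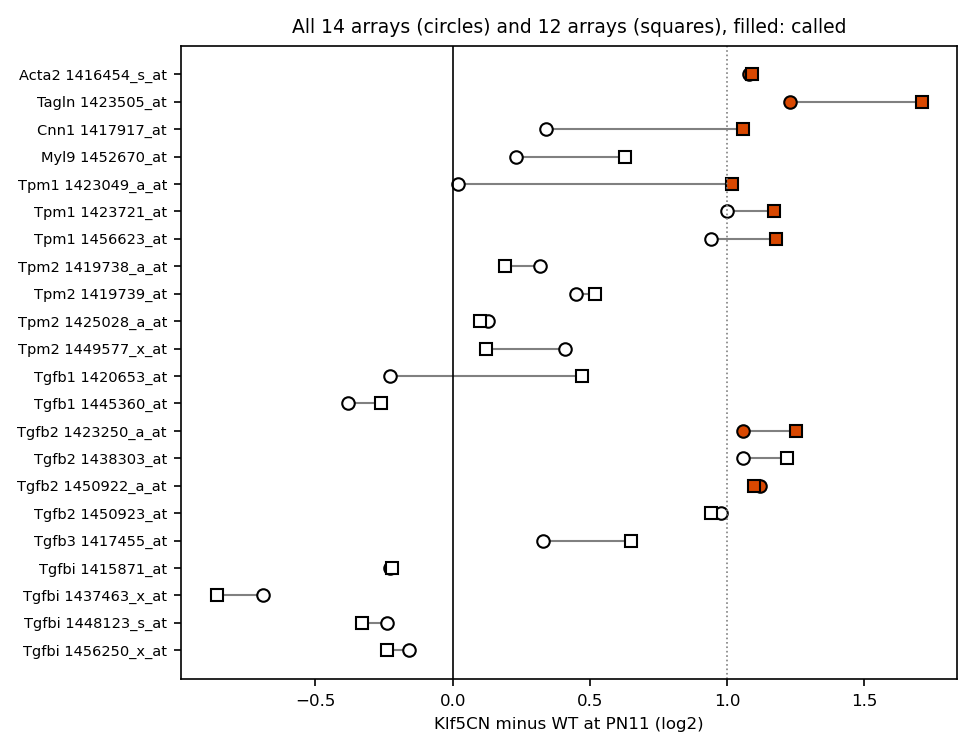
Klf5CN minus WT difference at PN11 on the log2 scale (x axis) for each tested member probe set (rows), with all 14 arrays (circles) and without PN11 Klf5CN replicate 3 and PN56 Klf5CN replicate 4 (squares), filled where called and with a dotted line at 2-fold. With 14 arrays 4 points are filled and with 12 arrays 8 are, among them Cnn1 and the 3 tested Tpm1 probe sets. Cnn1 passed the filter mainly through PN11 Klf5CN arrays, so its filled square is not evidence of a difference.

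Other genes of these pathways were read from 6 lists, each gene by its brightest tested probe set, among 13660 genes. Of 15 other smooth muscle contractile genes, 0 were called in either direction at PN11 by limma, against 3.8% of all genes higher and 1.48% lower. Of these 15, 8 were higher and 0 lower at an unadjusted p under 0.05, and their median difference was 0.78 against -0.001 over all genes. The largest was Pdlim3 at 1.0 (SE 0.49, adjusted p = 0.28), a PDZ and LIM protein of the muscle Z-disc. At PN56, 3 were higher, against 7.1% of all genes, and 0 lower by limma against 1.63% (6 and 1 at an unadjusted p under 0.05, and 2 and 0 by the rank rule). They were Csrp1 (1.18, adjusted p = 0.021), a LIM protein of smooth muscle, Synm (1.08, adjusted p = 0.017), the intermediate filament synemin, and Casq2 (1.05, adjusted p = 0.016), a calcium-storage protein. Each of these calls was ended by 4 of the 14 single-array removals, and the count ran from 0 to 3: it was 0 without PN56 Klf5CN replicate 1, and 1 without PN56 Klf5CN replicate 2, PN56 WT replicate 2 or PN56 WT replicate 4. Under the other settings it ran from 0 to 5. The median of the list at PN56 was 0.08, against 0.015 over all genes.

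In the same list 8 of 15 genes fell with age in WT, against 15.6% of all genes, and 0 rose by limma, against 4.37% (0 rose also at an unadjusted p under 0.05 and by the rank rule). The largest falls were of Itga8 (-2.82, adjusted p = 5.9e-07), the alpha subunit of an integrin, Actg2 (-1.78, adjusted p = 0.00076), smooth muscle gamma-actin, and Smtn (-1.36, adjusted p = 0.0053), smoothelin. In Klf5CN corneas 9 of 15 fell, against 13.4% of all genes, and 0 rose by limma, at an unadjusted p under 0.05 or by the rank rule, against 4.8%. Of 13 relatives of the contractile members, such as other actins, calponins and myosin light chains, 0 were called at PN11 (5 higher and 0 lower at an unadjusted p under 0.05), with the largest difference for skeletal Acta1 at 1.25 (SE 0.47, adjusted p = 0.14). At PN56 the relative called was Myl7, the atrial myosin light chain, lower by -1.18 (adjusted p = 0.0033), and with age in WT it was Cnn2, another calponin (-1.22, adjusted p = 0.00019). SRF and its cofactors, 3 genes tested, had 0 calls by limma at any contrast (0, 2 and 1 higher and 0 lower at an unadjusted p under 0.05 at PN11, PN56 and with age in WT). At PN56 Mrtfa, a coactivator of SRF, differed by 0.58 (adjusted p = 0.088).

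Genes that hold TGF-beta in the matrix or release it were 11. Of these, 2 were higher in Klf5CN at PN11, against 3.8% of all genes: Itgb8 (1.4, SE 0.20, adjusted p = 0.0012) and Itgb6 (1.25, SE 0.26, adjusted p = 0.011), the beta chains of integrins that activate latent TGF-beta. Itgb6 lost its call without PN11 WT replicate 1, PN11 WT replicate 3 or PN11 Klf5CN replicate 2, and Itgb8 kept its call with each array left out. At PN56, 2 others were higher, against 7.1%, Ltbp2 (2.71, SE 0.44, adjusted p = 0.00098) and Ltbp1 (2.34, SE 0.23, adjusted p = 4.8e-05), members of the latent TGF-beta binding protein family. With age in WT, 5 fell, against 15.6% of all genes, led by Ltbp2 (-3.73), Ltbp1 (-3.64) and Emilin1 (-3.38), and Itgb6 rose by 2.08. The group means of Ltbp1 were 10.25 in PN11 WT, 10.62 in PN11 Klf5CN, 6.60 in PN56 WT and 8.94 in PN56 Klf5CN, with SDs of 0.18 to 0.53. Its Klf5CN effect at PN56 exceeded that at PN11 by 1.97 (SE 0.35, adjusted p = 0.025), a call that 7 of the 14 single-array removals kept (adjusted p 0.00073 to 0.099). The call held without both high-ratio arrays (2.08, adjusted p = 0.04). It was lost without PN11 WT replicate 1, 2 or 3, PN11 Klf5CN replicate 1 or 2, PN56 WT replicate 1 or PN56 Klf5CN replicate 2, with the replicate block (adjusted p = 0.062) and with no filter (adjusted p = 0.081).

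Of 18 receptor and Smad genes, 0 were called at PN11 by limma (1 higher and 1 lower at an unadjusted p under 0.05, and 0 by the rank rule), where Tgfbr2, the type II receptor, had the largest difference at 0.64 (adjusted p = 0.12). At PN56, 1 was higher, against 7.1% of all genes, Pmepa1 (1.32, SE 0.21, adjusted p = 0.00079), a TGF-beta target that limits Smad signalling. With age in WT, 6 fell, against 15.6%, led by Eng (-1.92), endoglin, then Tgfbr2 (-1.74) and Acvrl1 (-1.64), a type I receptor of vessels. By limma 0 rose, against 4.37% of all genes, and 1 rose at an unadjusted p under 0.05. Over settings other than leaving out arrays, the count of rises ran from 0 to 5. The study lists Tgfbr1, a gene of this list, among its largest rises with age in WT. Here Tgfbr1 was read by its brightest tested probe set, which may not be the one the study lists, and was not called higher. Why the readings differ was not tested. Of 17 TGF-beta responsive genes, 1 was higher at PN11, against 3.8% of all genes, Tnc (1.92, SE 0.47, adjusted p = 0.025), the matrix protein tenascin C, and leaving out any of the 6 PN11 arrays ended that call. At PN56, 9 were higher, against 7.1%, or 3 by the rank rule, and the largest were Col3a1, a collagen chain (2.91, SE 0.40), Timp1, a protease inhibitor (2.73, SE 0.54), and Tnc (2.62, SE 0.41). Over leaving out each array the count of 9 ran from 5 to 10 (5 without PN56 WT replicate 4 or PN56 Klf5CN replicate 1), and without both arrays it was 7. In WT 11 of the 17 fell with age, against 15.6%, led by Col5a1 (-5.74), Lox (-4.58) and Col3a1 (-4.19). By limma 1 of the 17 rose, against 4.37%.

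**Figure D5:**
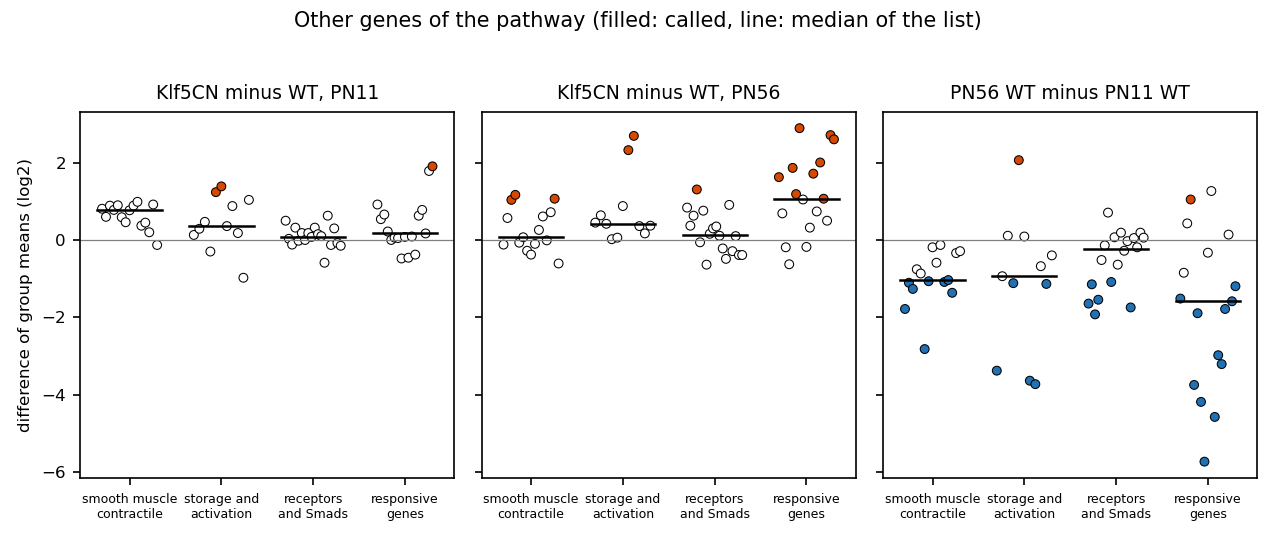
Log2 difference of group means (y axis) for each gene of 4 lists (x axis), 15 smooth muscle contractile genes, 11 storage and activation genes, 18 receptor and Smad genes and 17 responsive genes, in 3 comparisons: Klf5CN minus WT at PN11, the same at PN56, and PN56 WT minus PN11 WT. Filled points are called, lines are list medians, and the responsive genes hold 9 calls at PN56 and 12 with age in WT.

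Markers of other cells that express contractile or TGF-beta genes were read on the same arrays. For the marker counts below, the shares of all genes called in Klf5CN were 3.8% higher and 1.48% lower at PN11. They were 7.1% and 1.63% at PN56, and with age in WT 4.37% rose and 15.6% fell. The summed signal of 8 pericyte and vessel smooth muscle genes was 4360 to 4780 in PN11 WT, 4090 to 4880 in PN11 Klf5CN, 1350 to 1760 in PN56 WT and 1240 to 2300 in PN56 Klf5CN. These sums overlapped between genotypes at both ages and were lower at PN56. Of the 8, 1 gene was higher in Klf5CN at PN11, and at PN56 3 were higher and 1 lower, while 5 fell with age in WT. Mcam and Kcnj8 had no Present call in PN56 WT. All 12 endothelial markers fell with age in WT, with sums of 1720 to 1990 at PN11 and 281 to 411 at PN56, where 1 was higher in Klf5CN (298 to 570). The part of vessel cells in the falls of Acta2, Tagln and Myl9 was not tested.

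Keratocyte markers fell with age too, 8 of 9 in WT, with sums of 32300 to 34400 at PN11 and 4900 to 7530 at PN56. In PN56 Klf5CN the sums were 4310 to 18800, with a median of 11000 against 5770 in PN56 WT. There, 2 of the 9 were called higher in Klf5CN, and 7 were higher and 0 lower at an unadjusted p under 0.05. Their median difference at PN56 was 0.96, against 0.015 over all genes. Macrophage markers, which come from cells that also express Tgfb1, were higher in Klf5CN for 8 of 12 genes at PN11 (sums of 2600 to 3340 in WT and 7090 to 14300 in Klf5CN) and for 10 of 12 at PN56 (905 to 1590 and 2590 to 8720). Epithelial markers were bright in all groups, 38600 to 82100 in sum, and 1 of 8 was higher in Klf5CN at PN11. By limma 0 of the 8 were called lower at PN11 or PN56. The study, however, lists Tkt, a gene of this list, among its most decreased Klf5CN genes at both ages. Here Tkt was read by its brightest tested probe set, which may not be the one the study lists. Pigment cell markers, of iris and ciliary body, summed to 1940 to 2870 in PN11 WT, 1640 to 3550 in PN11 Klf5CN, 917 to 1800 in PN56 WT and 502 to 972 in PN56 Klf5CN. Of these 6, 3 fell with age in WT, and Tyrp1 was lower in Klf5CN at PN56 (-1.14, adjusted p = 0.032). Of 6 tested skeletal muscle markers, sums were 192 to 234 in PN11 WT and 204 to 692 in PN11 Klf5CN, and Myl1 was at the lowest value kept in the other 3 groups. Among these 6, 1 was higher in Klf5CN at PN11, 0 were called at PN56 by limma, and 2 fell with age in WT. The list held 12 genes, and the rest lay below the filter. Lens markers summed to 110 to 7850, with 0 of 6 called at PN11, PN56 or with age in WT by limma, also 0 at an unadjusted p under 0.05 and by the rank rule. The part of these cells in the member results was not tested.

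Genes with the most similar pattern were found by the root mean square difference of log2 signals over the 14 arrays, after each was centred on its own mean. For Acta2, which varied by 1.03 about its mean by this measure, they were Tlr13 (0.22), an innate immune receptor, Adam12 (0.25), a metalloprotease, and Mfge8 (0.25), a secreted glycoprotein. For Tagln, which varied by 1.09, they were Fxyd2, Plekho1 and Tspan2, at 0.35 to 0.37. For Tgfb2 on 1450923_at, which varied by 1.02, they were Il17rd (0.22), Fbxl7 (0.23) and Sostdc1 (0.23). Tgfbi varied by 0.26, and Oaz1, Cdipt and Perp lay within 0.09 of it. The arrays are the 4 groups, so likeness reflects the group means as well as the spread of single arrays.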

How the data were processed

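RNA from pooled corneas of 14 mice was hybridised by the authors to Affymetrix mouse arrays after 3′ IVT labelling. The deposited intensity signals are linear values that the authors computed with GCOS 1.4 at default settings and scaled to a trimmed mean of 150, which held on all 14 arrays. Per the file headers, the authors also deposited a count of Present calls per group and probe set from the same software. The 3 columns of the authors' group comparisons were not used. Gene symbols came from the platform annotation: 34958 probe sets have 1 symbol, 932 several and 9211 none. Array medians ran from 25.9 to 35.2, and 57.8% of calls were Present. The number of arrays limits the precision.

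A floor of 10 (log2 3.32) replaced the 29.5% of signals beneath it before the log2 transform, so differences of low genes are understated. Probe sets over 20 on at least 3 arrays were tested (29416). The 4 groups were fitted together in limma 3.58.1 under R 4.3.3 (functions lmFit and eBayes, trend on) with Benjamini-Hochberg adjustment over all tested probe sets, two-sided. A call needs an adjusted p under 0.05 and over 2-fold; the difference between ages needs the adjusted p alone. In lists, a gene is read by its brightest tested probe set with 1 symbol, and no set test was run. The fit was tested on simulated data. Genes named from a list are the up to 3 with the largest called differences, or the largest where none was called; rises beside larger falls were named after their values were seen.

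Alternatives covered normalization, floor, filter, fold limit, fit, the beta-actin 3′ to 5′ ratio as a covariate, a rank rule adapted from the methods, the probe set of a gene and each array left out. The rank rule asks for no overlap, which with 4 against 4 is stricter than the study's, and leaves out its criterion on paired array comparisons. With 3 against 3 the exact rank test cannot go below 0.10. Members and gene lists were chosen with earlier results of these data known. Promoter letters were searched in the 250 bases before each start in a RefSeq table (GRCm38.p6), where 8 of the 10 members matched. Python 3.11.15 was used for tables and plots, through pandas 2.3.3, matplotlib 3.10.9 and numpy 2.4.6.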

Additional observations from a re-analysis of the deposited data

How the results depend on the processing

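Member counts moved with the setting as follows, where percentages are the shares of all tested probe sets under the same setting. The 4 probe sets called higher at PN11 became 2 with array medians subtracted (2.57%) and 2 with only the compared groups fitted (2.88%). They became 8 without both high-ratio arrays (3.22%), and 1 to 7 as each array was left out. The count was 1 without PN11 WT replicate 1 (1.37%) or PN11 Klf5CN replicate 1 (1.68%), and 7 without PN11 Klf5CN replicate 3 (2.75%). The counts of 8 and 7 hold Cnn1, which passed the filter mainly through PN11 Klf5CN arrays. The 1 at PN56 became 4 with no minimum fold (9.27%), 2 with the beta-actin covariate (5.97%) and 2 without both arrays (5.5%). With each array left out it ran from 1 to 5 (5 without PN56 Klf5CN replicate 3, 7.94%). With no minimum fold 4 were higher with age in WT and 6 in Klf5CN, in place of 0 and 1. With that setting 20.8% of all probe sets were higher in each of these comparisons. The interaction count ran from 0 to 1 with each array left out. With each array left out, falls with age ran from 6 to 8 in WT and 7 to 10 in Klf5CN. Over the other settings they ran from 5 (floor of 32, 7.86%) to 10 (no minimum fold, 21.5%) in WT, and reached 11 in Klf5CN without both arrays (12.1%).

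Over the 77 genes of the 6 lists, 3 were higher at PN11: 1 with signals under 32 set to 32, 6 with no minimum fold, with the covariate or with the probe set of smallest p, 5 by the rank rule, 7 without both arrays, and 1 to 4 with each array left out. Lower genes there went from 0 to 1 with array medians or the smallest p. At PN56, 15 higher became 8 with the floor of 32, 25 with no minimum fold, 9 with the compared groups only, 8 by the rank rule, and 8 to 19 with each array left out. The 1 lower, Myl7, became 0 with the floor of 32, with 16 added or with the filter at 64, and 3 with no minimum fold. With age in WT 2 higher became 5 with no minimum fold, 10 with the smallest p, 5 with the mean of the probe sets, and 1 to 3 with each array left out. With age in Klf5CN 1 higher became 6 with no minimum fold, 0 with the compared groups only, 0 without both arrays, 9 with the smallest p, 6 with the mean of the probe sets, and 0 to 2 with each array left out. The cause was not tested, other than that no fold limit admits smaller differences. No member probe set changed sign among results called in the main fit or in the alternative. Signs of the list genes were not compared between settings.

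The sources used here do not say that replicate numbers pair the mice, and arrays were treated as unpaired. Deviations of same-numbered arrays from their group means correlated at -0.20 to 0.09, and those of differently numbered arrays at -0.12 to 0.14. With 3 or 4 arrays per group this check cannot exclude pairing by litter. With the replicate block, 4 member probe sets were higher at PN11, 1 at PN56, and 6 lower with age in WT. Subtracting array medians moved the median of all probe sets at PN56 to -0.21, from 0.016. Acta2 at PN11 was under 2-fold with that setting and with the covariate. Dim probe sets (Cnn1, Acta2 1444105_at, Tgfb2 1438303_at) are limited by signal, as are dim list genes such as Itgb6 at PN11, Pdlim3 and Casq2.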
